A study of Mus musculus with 3 samples.

Results

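The comparison described here sets the liver of mice given zinc oxide (ZnO) nanoparticles for 8 weeks against the liver of control mice. Its members are defined by the sample labels and are 2 of the 3 libraries in the series, the 8-week library and the control library. They were chosen with earlier results of these data known. All mice were of CD-1, an outbred laboratory strain. The treated animals received ZnO nanoparticles, sonicated into suspension and given orally, at a daily 25 mg/kg, and the control animals received phosphate-buffered saline (PBS). The third library, after 12 weeks at the same daily dose, is given beside the others as a further value. Both treated libraries are set against the same control, so their log2 ratios are not independent of each other. Each group is 1 library, so no difference has a replicate check, no p-value is given, and a difference between animals cannot be told apart from one between treatments. Sex, age, how many animals each library pools, the hour of collection and the control's time point are not stated in the labels. Of 5 sex-linked genes none was called: Y-linked Ddx3y had 237, 225 and 246 CPM and X-linked Xist had 1.03, 0.628 and 0.982 CPM in the control, 8-week and 12-week libraries.

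Counts per gene were scaled to library size as CPM, from totals of 13614979 (control), 14258770 (8 weeks) and 13263211 (12 weeks). Of 49492 entries, 14585 had at least 1 CPM in at least 1 of the 3 libraries and were kept. A difference is given as the log2 ratio of CPM + 1 at 8 weeks over the control. A gene is called higher or lower at 2-fold, a rule of size only. Every count of called genes in a list is to be read against 4.15% higher and 2.1% lower over all genes kept. Intervals are exact 95% intervals of the ratio of counts and cover counting error only. They are taken without the added 1 CPM, so the log2 ratio of a gene with few counts can lie nearer to 0 than its interval. Where a gene is written with 3 values and no further words, they belong to the control, the 8-week and the 12-week library in that order.

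Hepatocytes clear foreign compounds in stages: cytochromes P450 and flavin monooxygenases oxidise them, transferases add a soluble group, and transporters export the product. The nuclear receptors CAR and PXR switch on many of these genes. Growth hormone, whose pulses differ between the sexes, and the circadian clock also set the level of many of them. Kupffer cells, the macrophages that line the liver sinusoids, take up particles from the blood.

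The tissue label was checked against defining markers. All 15 hepatocyte markers were measured, and together they held 7.239% of control counts, 8.22% after 8 weeks and 8.428% after 12. None of them was called, with a median log2 ratio of 0.14 where the median over all genes kept was -0.02. The 8-week library stood apart in its skeletal muscle transcripts. Of 43 markers of skeletal muscle, 33 were kept and 29 were higher, where 4.15% of all genes kept were higher. The whole muscle list summed to 339, 5616 and 533 counts, so the 8-week library was high and the 12-week library was near the control. Myh1, a fast-fibre myosin, had 2, 791 and 1 counts, and Myh7, the slow-fibre myosin that heart also uses, had 0, 85 and 0 counts. The muscle creatine kinase Ckm had 0, 80 and 0 counts. The 10 heart markers summed to 14, 20 and 8 counts and none was kept. Pancreatic markers went the other way, with 139, 60 and 84 counts. Without the muscle markers 576 genes were higher and 307 lower.

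Of 18 markers of Kupffer cells and other macrophages, 16 were higher and none lower, with a median of 1.69. The list summed to 3564, 9346 and 6924 counts. In bulk tissue, a change in the number of cells of a type and a change in RNA per cell cannot be told apart. The scavenger receptor gene Marco had 6.41, 28.0 and 22.2 CPM, a log2 ratio of 1.97. Timd4, which binds phosphatidylserine on dying cells and marks resident Kupffer cells, had 1.70, 10.6 and 7.25 CPM (2.11). In both genes the control was the low library. Lists of other liver cell types had fewer called markers. Of 16 sinusoidal endothelial markers, only the hyaluronan receptor Lyve1 was higher (1.07), although 15 had a positive ratio (median 0.38). Among 15 stellate cell and fibroblast markers only the collagen gene Col3a1 was called, at 17.0, 35.04 and 30.7 CPM (1.01). Markers of T, B and NK cells (7 kept) and of neutrophils and monocytes (5 kept) had no called member and medians of 0.11 and -0.01. The 30 collagens and matrix enzymes kept had 1 higher member, again Col3a1, with a median of 0.42.

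**Figure D1:**
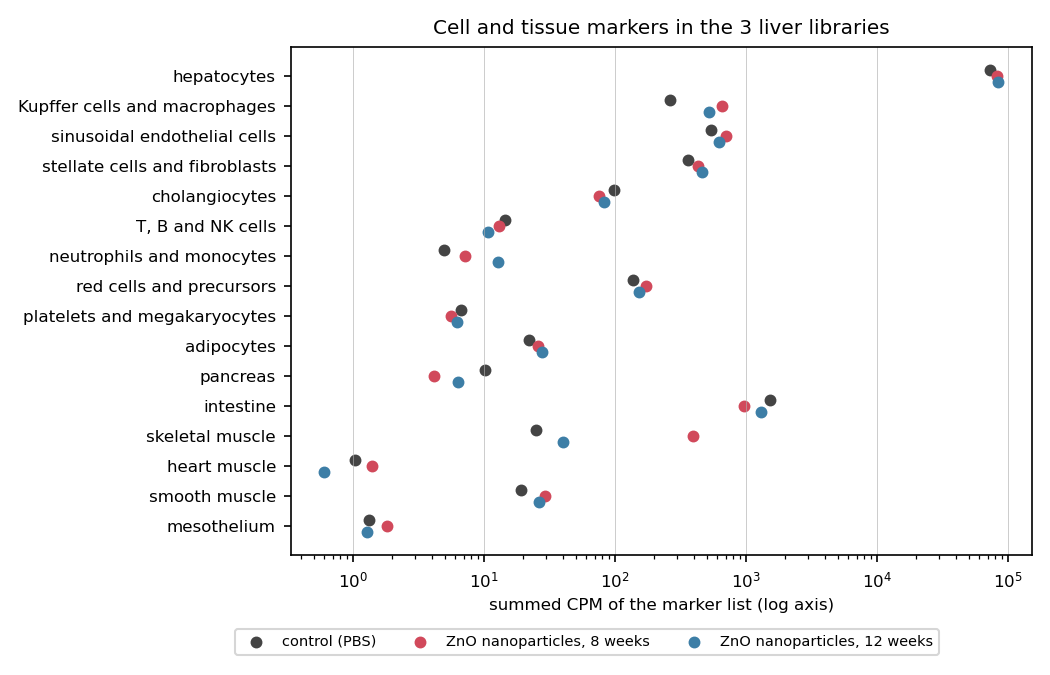
Summed CPM of each cell or tissue marker list (log axis) in the control, 8-week and 12-week libraries, 1 point per library. Hepatocyte markers sit close together in all 3 libraries, skeletal muscle markers are high at 8 weeks alone, and macrophage markers are lowest in the control.

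In all, 605 of the 14585 genes kept were higher (4.15%) and 307 were lower (2.1%), together 6.25%. The counting interval lay wholly past 2-fold for 466 of the higher (3.2% of genes kept) and 223 of the lower (1.53%). Of the 12316 protein-coding genes kept, 512 were higher (4.16%) and 243 lower (1.97%), together 6.13%. Calls to the higher side were most frequent in genes of low level: among 5753 genes with a mean of 1 to 10 CPM 5.53% were higher and 2.1% lower, and among 1489 genes at 100 to 1000 CPM 3.63% were higher and 3.16% lower. Of the 110 genes above 1000 CPM, 3 were higher and 3 lower. For comparison, at 12 weeks against the same control 3.11% of genes were higher and 1.34% lower.

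**Figure D2:**
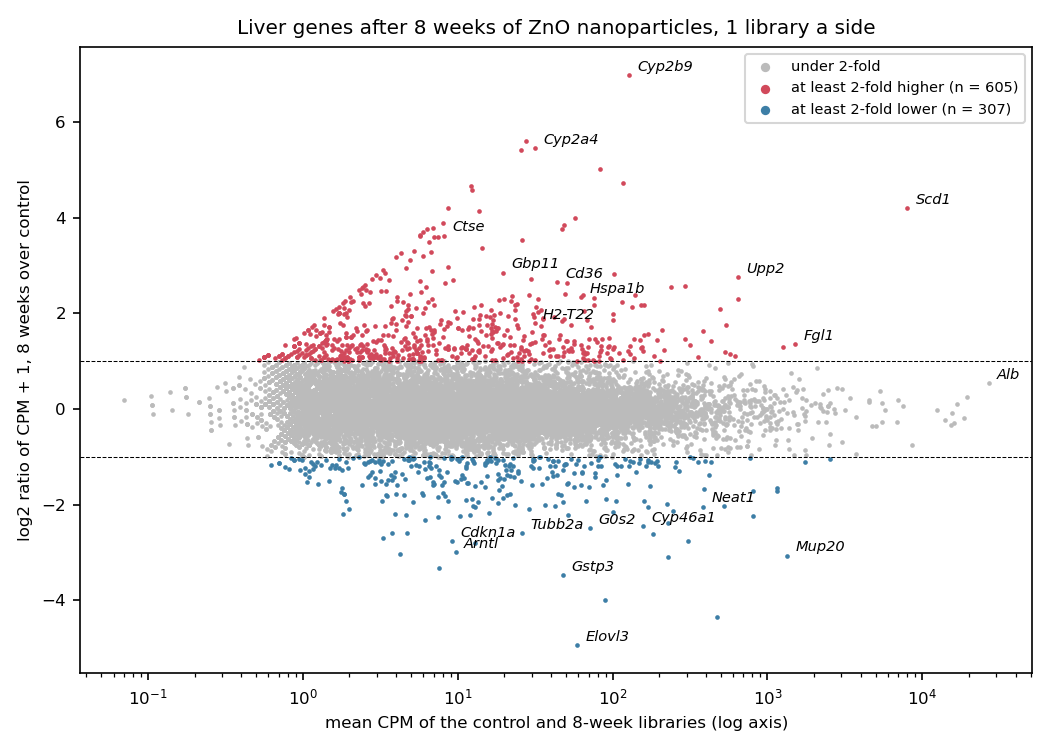
Log2 ratio of CPM + 1 at 8 weeks over control (vertical axis) against the mean CPM of both libraries (horizontal log axis), 1 point per gene kept, with genes past 2-fold coloured and some named. Of the 14585 points, 605 lie above the upper 2-fold line and 307 below the lower one.

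Among the 15 highest ratios, leaving out predicted genes and muscle markers, were several genes that are scarcely present in control liver. Ctse, which encodes the aspartic protease cathepsin E (chr1:131638306-131675505, mm10), had 5, 228 and 52 counts (log2 ratio 3.63, interval 4.19 to 7.07). Chrna4, a subunit of the nicotinic acetylcholine receptor (chr2:181018380-181043546), had 3, 184 and 78 counts (3.50, interval 4.29 to 8.15). Lrtm1, which encodes a leucine-rich repeat membrane protein, had 2, 148 and 52 counts (3.30, interval 4.25 to 9.19). All 3 genes were high at 8 weeks, lower at 12 weeks and near 0 in the control. Ptgr1, a prostaglandin and alkenal reductase, had 16, 230 and 97 counts (2.97). Ube2c, also among the 15, overlaps the muscle troponin gene Tnnc2 on the opposite strand, and both had 198 counts at 8 weeks, so its reads could not be separated from muscle RNA. Ckmt2, another of the 15, encodes the creatine kinase of muscle mitochondria and had 0, 123 and 0 counts.

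Among the 15 lowest, the melatonin receptor gene Mtnr1a (chr8:45069137-45088506) had 97, 5 and 10 counts (log2 ratio -2.59, interval -6.01 to -3.08). Slc35f1, a solute carrier gene (chr10:52690533-53111622), had 113, 2 and 4 counts (-3.03, interval -8.96 to -4.01). Both were near 0 in the 8-week and 12-week libraries. Cyp46a1, the cholesterol 24-hydroxylase (chr12:108334377-108362231), had 267 CPM in control liver, 48.0 after 8 weeks and 144 after 12 (-2.45, interval -2.59 to -2.36), so the 12-week library lay between the others. Pitx3, a homeobox gene (chr19:46135685-46148326), had 87, 2 and 3 counts (-2.70, interval -8.59 to -3.63). It lies next to the opposite-strand gene Elovl3 (chr19:46131897-46135307), which was more abundant and also lower. Whether the Pitx3 counts hold reads of that neighbour was not tested.

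Genes with the largest absolute gains in CPM included secreted and metabolic hepatocyte proteins. Albumin (Alb) had 21847 CPM in control liver, 31793 after 8 weeks and 31169 after 12, a log2 ratio of 0.54 that is under the 2-fold rule. Fgl1, a fibrinogen-like hepatokine (chr8:41191434-41215156), had 842 CPM in control liver, 2161 after 8 weeks and 1104 after 12 and was called (1.36, interval 1.33 to 1.39). Rgn, which encodes the calcium-binding lactonase regucalcin, had 726, 1798 and 1398 CPM (1.31). Tat, the tyrosine aminotransferase, had 1477, 2670.4 and 2010.5 CPM (0.85) and was not called. By absolute loss, Mup3 had 10706, 6349.8 and 8633 CPM (-0.75) and Mug1, a plasma protease inhibitor of the murinoglobulin family, had 4900.5, 2556 and 3285 CPM (-0.94). Neither passed 2-fold. Crot, the peroxisomal carnitine octanoyltransferase, had 1760.4 CPM in control liver, 534 after 8 weeks and 543 after 12 and was called (-1.72, interval -1.76 to -1.68). The P450 gene Cyp2d40 had 3441, 1656 and 608 CPM (-1.05).

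Genes on a list of CAR and PXR targets were higher more often than genes at large. Of 29 listed genes 15 were higher and 1 was lower, with a median of 1.07, where 4.15% of all genes were higher. Sex-biased P450 genes are among the 15, so the list is not one of CAR and PXR alone. Cyp2a5, the coumarin 7-hydroxylase (chr7:26835305-26843548), had 84.0 CPM in control liver, 503 after 8 weeks and 352 after 12 (log2 ratio 2.57, interval 2.49 to 2.67). Alas1, the first and rate-limiting enzyme of heme synthesis, had 156 CPM in control liver, 431 after 8 weeks and 296 after 12 (1.46). In both genes each treated library was above the control. Aldh1a7, an aldehyde dehydrogenase, had 42.7, 159 and 124 CPM (1.87), and Abcc4, an export pump for bile acids and conjugates, had 1.92, 5.79 and 3.47 CPM (1.22). The textbook CAR target Cyp2b10 had 19, 58 and 90 counts (1.07), and the textbook PXR target Cyp3a11, the most abundant P450 of its family here, had 4644 CPM in control liver, 6042 after 8 weeks and 3868 after 12 (0.38) and was not called. Slco1a4, a basolateral uptake carrier for organic anions, had 99.9 CPM in control liver, 316 after 8 weeks and 119.9 after 12, so the 8-week library was high and the 12-week library near the control. Gadd45b, a stress gene that CAR can induce, was the lower member at 18.3, 4.19 and 8.15 CPM (-1.89). The list does not hold every such gene: the epoxide hydrolase Ephx1, counted on another list below, was lower (-1.02). None of the 4 kept genes of the aryl hydrocarbon receptor was called, with a median of 0.17.

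Several of these families lie in tandem in the genome, and the kept members on the same chromosome were counted together, a grouping chosen after values were seen. In the Cyp2a and Cyp2b cluster (chr7:25897620-27037375, mm10) 7 of 8 kept genes were higher, and the cluster summed to 208, 932 and 884 CPM. The exception was Cyp2a12, a steroid hydroxylase, at 119, 80.3 and 238 CPM (-0.57). Among the Cyp2c genes of chromosome 19 (chr19:39007019-44029208) 7 of 12 were higher and 1 was lower, with sums of 1966, 4159 and 3232 CPM. Cyp2c44, the last of them, is included, so the span need not be a single cluster. Cyp2c39, a retinoic acid hydroxylase, had the largest gain in CPM of these Cyp2c genes, with 217 CPM in control liver, 1066 after 8 weeks and 458 after 12 (2.29, interval 2.24 to 2.35). Cyp2c29 had 357, 789 and 792 CPM (1.14). The Cyp3a genes (7 kept on chromosome 5) had no called member and a median of 0.47. The Cyp4a cluster of fatty acid hydroxylases (chr4:115299046-115621602) had 0 higher and 3 lower of 7, with sums of 2648, 1060.0 and 801 CPM. Members of these clusters are near-identical in places, and values of single genes depend on how reads were shared among them.

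Flavin monooxygenases oxidise nitrogen and sulfur in drugs and in dietary amines, and all 5 kept members had a positive ratio (median 0.93). Fmo2 (chr1:162874317-162898726) had 7.08 CPM in control liver, 52.4 after 8 weeks and 39.6 after 12 (2.73, interval 2.58 to 3.21). Fmo5, the most abundant of the family here when counts are divided by transcript length, had 548, 1048 and 763 CPM (0.93) and missed the 2-fold rule. In both genes each treated library was above the control.

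Conjugating enzymes divided by family. Of 22 glutathione transferases 4 were higher and 2 lower (median 0.31), beside 4.15% higher and 2.1% lower over all genes kept. The mu-class Gstm3 had 6.04, 33.6 and 21.3 CPM (2.30) and the alpha-class Gsta3 had 393, 849 and 522 CPM (1.11). The pi-class genes, which lie together at chr19:4035407-4059446 and are more abundant in male liver, went the other way. Gstp3 had 89.0 CPM in control liver, 7.12 after 8 weeks and 115 after 12 (-3.47, interval -3.95 to -3.35), so the 8-week library alone was low. Gstp2 had 22.8, 10.3 and 13.97 CPM (-1.08) and Gstp1 489, 254 and 340.1 CPM (-0.94, not called). Sulfotransferases had 4 of 10 higher and none lower (median 0.89). Sult1d1, which sulfates catecholamines, had 49.4 CPM in control liver, 139 after 8 weeks and 119 after 12 (1.48), and Sult1a1, which sulfates phenols, had 80.2, 178 and 161 CPM (1.14). None of the 18 glucuronosyltransferases kept was called, with a median of -0.06. Carboxylesterases, which split ester drugs and lipids, had 4 of 12 higher and none lower. Of these, 3 are neighbours in the Ces2 cluster (chr8:104734003-105021178), led by Ces2e with 26.9, 73.5 and 55.9 CPM (1.42), and the fourth is the lipid esterase Ces1g with 88.2, 216 and 93.9 CPM (1.28).

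Among 13 organic ion transporters of the Slc22a family 4 were higher and 1 was lower, beside 4.15% and 2.1% of all genes kept. Slc22a26, Slc22a27 and Slc22a29 (1.06) are neighbours at chr19:7781041-8405111. Slc22a26 had 5, 166 and 79 counts (3.20, interval 3.72 to 6.62), and Slc22a27 had 1, 96 and 57 counts (2.84, interval 3.99 to 11.82). The 5 kept genes of that cluster summed to 262, 248 and 177 CPM, most of it from Slc22a30 at 240.5, 211 and 151 CPM. Slc22a7, the carrier OAT2, had 4.79, 10.7 and 10.6 CPM (1.02). Slc22a5, the carnitine carrier, was lower at 67.7 CPM in control liver, 29.5 after 8 weeks and 66.6 after 12 (-1.17, interval -1.37 to -1.03). Retinoid and aldehyde enzymes showed 2 higher and 2 lower of 27 (median 0.09), beside 4.15% and 2.1% of all genes kept. The lower genes were the aldehyde oxidase Aox1 at 202, 97.3 and 75.5 CPM (-1.05) and the retinoid-responsive Rarres1 at 148, 64.3 and 130.4 CPM (-1.19).

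A list of aldo-keto reductases and steroid dehydrogenases, chosen after values were seen, had 6 higher and 3 lower of 27. Over all genes kept the shares were 4.15% and 2.1%. Hsd17b6, which converts androgens, had 245 CPM in control liver, 835 after 8 weeks and 654 after 12 (1.76), and Akr1c14, a 3-alpha-hydroxysteroid dehydrogenase, had 321 CPM in control liver, 735 after 8 weeks and 444 after 12 (1.19). The lower members were the male-biased Hsd3b5 at 55.9, 19.9 and 51.0 CPM (-1.44), the bile acid enzyme Hsd3b7 at 107, 33.8 and 41.9 CPM (-1.64) and the epoxide hydrolase Ephx1 at 443, 217 and 216 CPM (-1.02). Hsd3b7 overlaps a called antisense gene, and their reads cannot be told apart. Of 20 glucocorticoid-responsive genes, also chosen after values were seen, 7 were higher and 1 was lower (median 0.51), beside the same shares. Of the 7, Lcn2 also answers to inflammation, Mt1 and Mt2 to metals, and Per1 to the clock. Tsc22d3 (GILZ) had 74.4, 186 and 93.0 CPM (1.31) and Ddit4, an inhibitor of mTORC1, had 1.11, 6.35 and 3.70 CPM (1.80). Serpina6, which encodes the corticosteroid-binding globulin of plasma, had 85.5 CPM in control liver, 254 after 8 weeks and 139 after 12 (1.56, interval 1.48 to 1.67).

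Growth hormone acts in hepatocytes through its receptor, JAK2 and STAT5b, and its effect is read from feedback genes such as Cish and from factors that sort female from male programmes. Of 23 genes of this pathway 4 were higher and none lower (median 0.40), beside 4.15% higher and 2.1% lower over all genes kept. Cux2, a repressor found almost only in female mouse liver (chr5:121856366-122050102), had 9, 106 and 88 counts (2.34, interval 2.50 to 4.65). Onecut1 (HNF6), a liver homeobox factor (chr9:74861921-74891781), had 10.5 CPM in control liver, 55.7 after 8 weeks and 59.6 after 12 (2.31, interval 2.15 to 2.68). Cish, the feedback inhibitor induced by STAT5, had 15, 151 and 154 counts (2.45, interval 2.49 to 4.13). In these 3 genes the treated libraries were close to each other and both far above the control. Cish and Onecut1 each overlap a further called gene model, of 39 counts or fewer at 8 weeks beside Cish and of 228 beside Onecut1. Lepr, the leptin receptor gene, had 5.31 CPM in control liver, 22.2 after 8 weeks and 54.1 after 12 (1.88). Core components were not called. The receptor Ghr had 342, 445 and 379 CPM (0.38), Stat5b had 51.1, 48.2 and 56.5 CPM (-0.09), and Igf1, the main growth hormone output of liver, had 631, 836 and 973 CPM (0.40). The feedback gene Socs2 had 13.6, 26.4 and 39.1 CPM (0.91) and the male-biased repressor Bcl6 29.3, 17.0 and 31.7 CPM (-0.76), both short of 2-fold. The Mup genes of chromosome 4, which growth hormone pulses maintain, had 15 lower and 1 higher of 28 kept genes and pseudogenes. Over all genes kept 2.1% were lower and 4.15% higher. The Mup sums were 16263, 7432 and 13337 CPM, and most of each came from Mup3 at 10706, 6349.8 and 8633 CPM, which was not called. How reads were shared among the Mup copies was not tested, so their calls are not independent of each other.

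**Figure D3:**
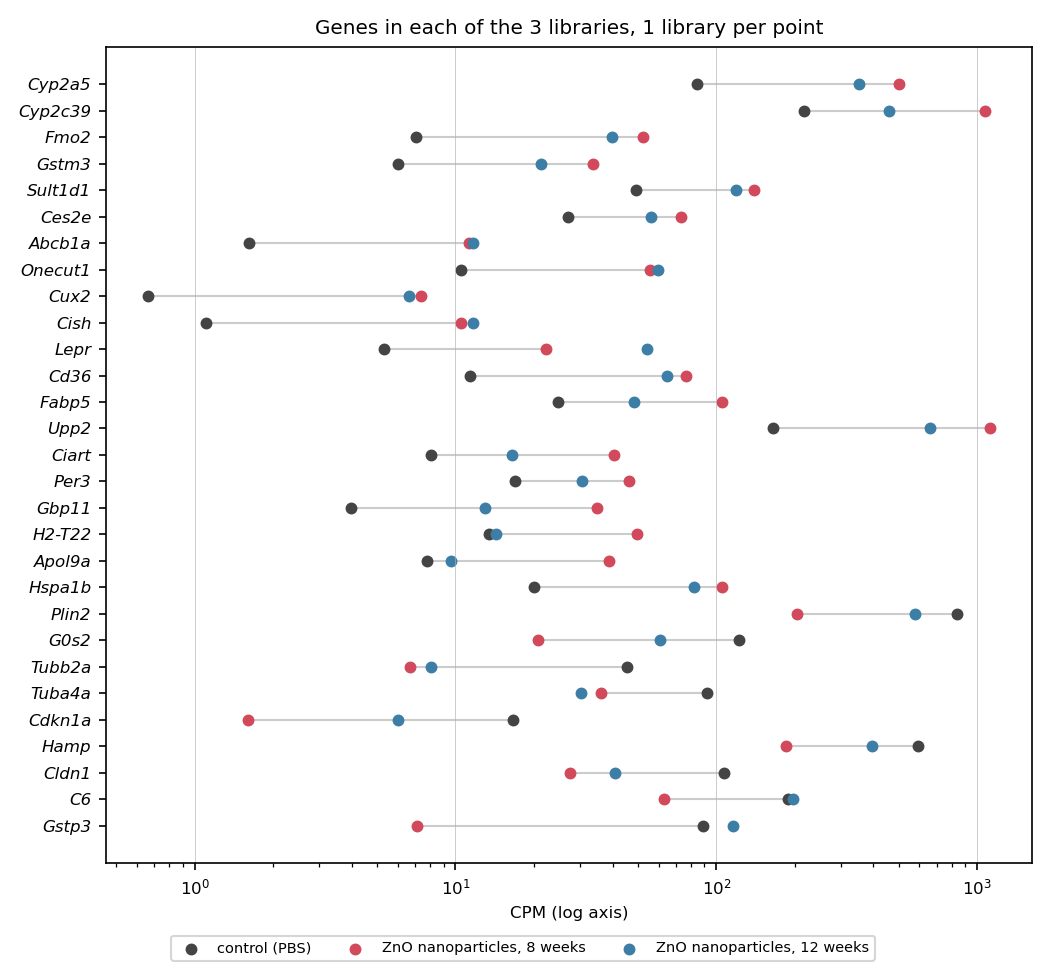
CPM (log axis) of 29 genes in the control, 8-week and 12-week libraries, 1 point per library and a line from the control to the 8-week value. Cish, Cux2, Onecut1 and Cd36 have both treated libraries far from the control, while H2-T22, Apol9a, C6 and Gstp3 have the 8-week library apart from the others.

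Most genes of fatty acid uptake and of lipid droplets were not called, and the called ones were higher among the former and mostly lower among the latter. Of 21 genes of fatty acid uptake and binding 6 were higher and none lower, with 15 not called (median 0.24). The fatty acid translocase Cd36 (chr5:17781690-17888801) had 11.3 CPM in control liver, 76.7 after 8 weeks and 64.6 after 12 (2.65, interval 2.51 to 3.01). Fabp5, a fatty acid binding protein of skin and macrophages (chr3:10012548-10016607), had 24.7 CPM in control liver, 105 after 8 weeks and 48.5 after 12 (2.05, interval 1.92 to 2.27). Vldlr, the VLDL receptor, had 14.4, 31.3 and 18.0 CPM (1.07), and the arachidonate-preferring ligase Acsl4 had 44.9, 92.9 and 118 CPM (1.03). The other called members, the macrophage scavenger receptor Msr1 (1.29) and the lipase Lpl (1.17), are also expressed by macrophages, whose markers summed to 3564, 9346 and 6924 counts. The part of macrophages in these values was not tested. The main hepatocyte binding protein Fabp1 had 1819, 1348 and 1193 CPM (-0.43) and was not called.

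Of 19 lipid droplet genes 5 were lower, 1 was higher and 13 were not called, with a median of -0.41. Plin2, the main droplet coat protein of hepatocytes (chr4:86648386-86670060), had 837 CPM in control liver, 204 after 8 weeks and 579 after 12 (-2.03, interval -2.09 to -1.98). G0s2, the inhibitor of the triglyceride lipase ATGL (chr1:193272161-193273217), had 122 CPM in control liver, 20.8 after 8 weeks and 60.6 after 12 (-2.50, interval -2.74 to -2.37). In both genes the 8-week library was lowest and the 12-week library lay between. Plin5 had 91.2, 35.5 and 58.7 CPM (-1.34), Plin4 32.1, 13.5 and 17.7 CPM (-1.19) and the droplet-fusing Cidec 9.73, 2.93 and 5.21 CPM (-1.45). The higher member was Pnpla3, a droplet lipase induced with lipogenesis, at 0.295, 2.58 and 2.11 CPM (1.47). The lipase Pnpla2 (ATGL) itself had 71.3, 70.8 and 81.8 CPM (-0.01).

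The circadian clock of liver runs on activators (Arntl, Clock, Npas2) that drive their own repressors (Per, Cry) and output factors such as Dbp, and the phase of each gene depends on the hour of collection, which the labels do not give. Of 33 core and output genes 13 were higher and 6 lower (median 0.58), against 4.15% and 2.1% of all genes. Clock itself had 116 CPM in control liver, 50.7 after 8 weeks and 72.6 after 12 (-1.18), and the activator Npas2 had 26, 2 and 7 counts (-1.36, interval -6.90 to -1.78). Ciart, a repressor of the activators (chr3:95878503-95882251), had 8.03 CPM in control liver, 40.3 after 8 weeks and 16.5 after 12 (2.19, interval 2.03 to 2.64). Per3 (chr4:151003652-151044665) had 17.0 CPM in control liver, 46.3 after 8 weeks and 30.6 after 12 (1.40, interval 1.23 to 1.67). In all 4 genes the 12-week library lay between the others. Among outputs, the uridine phosphorylase Upp2 (chr2:58567298-58792971) had 164 CPM in control liver, 1117 after 8 weeks and 658 after 12 (2.76, interval 2.70 to 2.83). The ubiquitin protease Usp2 had 24.5, 127 and 61.6 CPM (2.33), the NAD-making Nampt 80.3, 238 and 166 CPM (1.56) and the tetraspanin Tspan4 16.7, 39.9 and 38.3 CPM (1.20). Avpr1a, the vasopressin receptor of pericentral hepatocytes, was lower at 69.1, 19.5 and 30.4 CPM (-1.77). Outside the list and chosen after its values were seen, Coq10b, a coenzyme Q binding protein, had 20.0, 74.7 and 55.9 CPM (1.85). Cyp2a5 and Alas1, counted here, also stand on the CAR and PXR list.

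Clock factors are known to bind short elements near start sites. Stretches of 120 bases are shown for 3 of these genes, from RefSeq on GRCm38.p6, in the direction of transcription. Capitals mark the E-box CACGTG in Ciart (chr3:95882246-95882365, minus strand) and the D-box TTATGTAA, or its reverse complement, in Per3 (chr4:151044784-151044903, minus strand) and Coq10b (chr1:55052552-55052671, plus strand).
Ciart: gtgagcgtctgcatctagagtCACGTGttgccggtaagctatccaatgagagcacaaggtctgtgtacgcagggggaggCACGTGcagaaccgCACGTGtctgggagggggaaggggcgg
Per3: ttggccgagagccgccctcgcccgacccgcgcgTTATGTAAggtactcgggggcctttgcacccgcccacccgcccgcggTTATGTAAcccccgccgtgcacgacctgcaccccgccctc
Coq10b: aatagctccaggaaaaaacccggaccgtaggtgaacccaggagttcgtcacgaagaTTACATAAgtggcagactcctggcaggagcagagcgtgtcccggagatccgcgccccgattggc
The search took the 250 bases before each start, on both strands, in 12892 windows of 10055 matched genes. The E-box was present in 8.07% of all windows, in 5.77% of those of higher genes and in 10.7% of those of lower genes. The clock list held it in 8 of 36 windows (22.2%), and Ciart carried it 3 times. The D-box, searched as TTATGTAA or TTACGTAA, was present in 0.683% of all windows, 2.58% of those of higher genes and 0.794% of those of lower genes. That is 13 of 503 windows of higher genes, and Per3 carried it 2 times. The clock list held the D-box in 1 of 36 windows (2.78%), that of Per3. Mean GC content was 54.2% in windows of higher genes, 58.6% in those of lower genes and 59.2% over all windows. Its part in these shares was not tested. Other elements were searched as well, and their shares follow for all windows, those of higher genes and those of lower genes. The metal response element was in 29%, 22.1% and 24.2%, and the GAS element in 6.07%, 6.96% and 4.76%. The heat shock element was in 0.403%, 0% and 0.397%. The sterol response element was in 1.13%, 0.994% and 1.98%, and the RORE in 0.147%, 0.199% and 0.794%. A match describes the letters in the window and is not a bound site.

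Genes of antigen presentation and guanylate-binding proteins were higher in part. Of 22 genes of MHC class I presentation 8 were higher and none lower (median 0.71), where 4.15% of all genes kept were higher and 2.1% lower. The nonclassical class I gene H2-T22 (chr17:36037128-36042747) had 13.4 CPM in control liver, 49.4 after 8 weeks and 14.3 after 12 (1.81, interval 1.64 to 2.12), so the 8-week library alone was high. H2-T23, which encodes Qa-1, had 30.1 CPM in control liver, 72.8 after 8 weeks and 31.6 after 12 (1.24). The immunoproteasome subunits Psmb8, Psmb9 and Psmb10 had log2 ratios of 1.34, 1.05 and 1.29, with Psmb8 at 10.5, 28.1 and 22.5 CPM. Psmb8 overlaps a called gene model on the opposite strand, which had 219 counts at 8 weeks beside 402 for Psmb8. B2m, the shared light chain of class I molecules, had 844, 1084 and 906 CPM (0.36) and was not called. Class I genes are near-identical copies of one another, and single values are uncertain. Of 18 interferon-inducible GTPases 5 were higher and none lower (median 0.75), read against the same 4.15%. All 5 belong to the guanylate-binding protein family, and Gbp11 is annotated as a polymorphic pseudogene. Gbp10 overlaps a called gene model on the same strand, with 114 counts at 8 weeks beside 123 for Gbp10, so reads may be shared. Gbp11 (chr5:105323042-105346472) had 3.98 CPM in control liver, 34.97 after 8 weeks and 12.99 after 12 (2.85, interval 2.73 to 3.57) and Gbp7 (chr3:142530342-142550149) had 7.52 CPM in control liver, 27.1 after 8 weeks and 23.3 after 12 (1.72, interval 1.53 to 2.18). The apolipoproteins L, a family chosen after values were seen, had 3 of 11 members kept and all 3 higher. Apol9a (chr15:77403789-77411080), an interferon-inducible gene, had 7.81 CPM in control liver, 38.8 after 8 weeks and 9.59 after 12 (2.18), again high at 8 weeks alone. MHC class II presentation had 1 higher gene of 7 kept, the lysosomal protease Ctss with 12.4, 53.5 and 40.7 CPM (2.02). Macrophage markers, given above with their sums, were higher in the same library, and their part in these lists was not tested.

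Interferon-driven factors are known to bind a short promoter element, and 3 stretches of 120 bases are shown in the direction of transcription, with the interferon-stimulated response element, searched on both strands as GAAA, any 2 bases and GAAA, in capitals. They are from Gbp7 (chr3:142530216-142530335, plus strand), H2-T23 (chr17:36032761-36032880, minus strand) and Apol9a (chr15:77411081-77411200, minus strand), from RefSeq on GRCm38.p6.
Gbp7: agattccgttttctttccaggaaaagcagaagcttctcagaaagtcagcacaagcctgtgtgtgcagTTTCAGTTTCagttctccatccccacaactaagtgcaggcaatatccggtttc
H2-T23: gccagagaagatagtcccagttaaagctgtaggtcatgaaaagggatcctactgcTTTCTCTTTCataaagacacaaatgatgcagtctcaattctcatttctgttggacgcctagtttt
Apol9a: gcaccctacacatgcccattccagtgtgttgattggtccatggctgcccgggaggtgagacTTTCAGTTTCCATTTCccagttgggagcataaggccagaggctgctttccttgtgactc
All 3 stretches hold it as its reverse complement, and in Apol9a a pair of matches overlaps. The element was present in 2.75% of all windows, in 7.55% of the windows of higher genes (38 of 503) and in 1.98% of those of lower genes (5 of 252). The MHC class I and GTPase lists together, called or not, held it in 12 of 29 windows (41.4%). B2m and Irgm1 were among the carriers that were not called, with B2m at 0.36 and Irgm1 at -0.01. The windows of higher genes had a mean GC content of 54.2%, against 59.2% over all windows.

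Cytosolic chaperones had few called members besides the inducible Hsp70 genes. Of 26 chaperone genes 2 were higher and 1 was lower (median -0.06). Hspa1a and Hspa1b are near-identical neighbours, so reads may be shared between them, and they had 8.62, 49.4 and 40.2 CPM (2.39) and 20.0, 105 and 81.8 CPM (2.33). Both treated libraries were above the control in these 2 genes. Hspa1a overlaps a called gene model on the opposite strand, which had 339 counts at 8 weeks beside 708 for Hspa1a. Hspb1, the small heat shock protein HSP25, was lower at 43.2, 17.9 and 31.4 CPM (-1.23), and the constitutive Hsp70 gene Hspa8 had 1050.0, 1142 and 1095 CPM (0.12). Of 41 lysosomal genes 3 were higher and none lower (median 0.09), the macrophage genes Ctss and Cd68 and the beta-galactosidase Glb1 at 2.80, 7.96 and 6.19 CPM (1.24). Autophagy genes had no called member among 25 (median 0.08).

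Structural genes of the cell were low in part. All 10 kept alpha and beta tubulin genes had a negative ratio and 4 were lower (median -0.56), where 2.1% of all genes were lower. Tubb2a, a beta tubulin (chr13:34074301-34078008), had 45.3 CPM in control liver, 6.70 after 8 weeks and 8.08 after 12 (-2.59, interval -3.08 to -2.44). Tuba4a had 91.8 CPM in control liver, 36.0 after 8 weeks and 30.2 after 12 (-1.33), and Tubb4b had 77.8, 25.8 and 22.7 CPM (-1.56). In Tubb2a and Tuba4a both treated libraries were below the control. Junction genes, a list chosen after values were seen, had 6 lower and none higher of 39 (median -0.26). Over all genes kept 2.1% were lower and 4.15% higher. The tight junction protein gene Cldn1 (chr16:26356642-26371841) had 107 CPM in control liver, 27.4 after 8 weeks and 40.7 after 12 (-1.93, interval -2.13 to -1.81), cingulin (Cgn) had 94.8, 30.9 and 31.9 CPM (-1.59), and E-cadherin (Cdh1) had 21.96, 10.5 and 16.9 CPM (-1.002). Of 12 bile duct markers 7 were kept, 2 were lower and 0 higher, with 3 positive and 4 negative ratios (median -0.26). The lower ones were the ductal factor Sox9 with 15.3, 4.68 and 13.4 CPM (-1.52) and the keratin Krt23 with 4.86, 1.74 and 4.23 CPM (-1.10). Spp1 (osteopontin) and Cd24a had log2 ratios of 0.22 and 0.35. The defining duct keratin Krt19 was too low to be kept in any library, and the part of duct cells was not tested.

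Growth arrest genes included some of the lowest ratios. Cdkn1a, the cell cycle inhibitor p21 (chr17:29090979-29100722), had 16.7 CPM in control liver, 1.61 after 8 weeks and 6.04 after 12 (-2.76, interval -4.06 to -2.75). Of 23 p53 targets and growth arrest genes 3 were lower and 1 was higher, with a median of 0.16. The others were Gadd45a at 11.8, 3.77 and 7.40 CPM (-1.42) and Gadd45b, given above, while the BH3-only gene Pmaip1 (NOXA) was higher at 7, 33 and 26 counts (1.12). Of 24 cell cycle genes 1 was higher, Mki67 with 8, 56 and 52 counts (1.63), and 1 lower, the atypical E2F gene E2f8 with 68.8, 16.1 and 36.4 CPM (-2.03). E2f8 overlaps another called gene model, and reads may be shared. The median of the cell cycle list was 0.04. Of 26 apoptosis regulators only the BH3-only gene Bmf was higher, at 3.24, 8.10 and 5.59 CPM (1.10).

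Metal handling outside the metallothioneins was largely uncalled. None of 12 zinc importers of the Slc39a family was called (median 0.03). The inflammation-induced importer Slc39a14 (ZIP14) had 143 CPM in control liver, 224 after 8 weeks and 285 after 12 (0.64). Of 29 iron genes 2 were lower and 1 was higher (median -0.02). Hamp, which encodes hepcidin, the hormone that limits iron uptake (chr7:30942368-30944032), had 593 CPM in control liver, 185 after 8 weeks and 395 after 12 (-1.68, interval -1.75 to -1.62). The BMP target Id1 had 16.0, 6.49 and 7.47 CPM (-1.18), and the metalloreductase Steap4 had 39.5, 89.6 and 481 CPM (1.16). Transferrin (Trf) had 2590.3, 3465 and 3558 CPM (0.42), and the transferrin receptor Tfrc had 47.5, 41.8 and 30.1 CPM (-0.18). Of 9 heme synthesis genes only Alas1 was called, and the other 8 had negative ratios. Of 20 copper, manganese and selenium genes 3 were lower and none higher. Slc30a10, the manganese exporter, had 73.2 CPM in control liver, 20.3 after 8 weeks and 44.2 after 12 (-1.80), and the selenium-binding protein gene Selenbp2 had 45.7, 14.5 and 5.81 CPM (-1.59). Sco2, a copper chaperone of cytochrome oxidase, had 69.3, 30.6 and 38.1 CPM (-1.15) and overlaps the called gene Tymp on the same strand.

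Plasma protein genes were called singly, and their counts stand beside 4.15% higher and 2.1% lower over all genes kept. Of 30 complement genes 2 were higher and 1 was lower (median 0.20). C6, a component of the membrane attack complex (chr15:4727175-4815456), had 188 CPM in control liver, 62.9 after 8 weeks and 197 after 12 (-1.56, interval -1.69 to -1.47), so the 8-week library alone was low. C4a, whose sequence is close to C4b and which is more abundant in male liver, had 41.4, 95.2 and 146 CPM (1.18), and properdin (Cfp), a product of myeloid cells, had 43, 154 and 130 counts (1.49). Of 30 coagulation genes only factor VIII (F8), made by endothelial cells, was called, at 16.4, 44.3 and 28.5 CPM (1.38). Of 21 Serpina genes 2 were higher and 1 was lower. Secreted hormones of liver had 3 lower and none higher of 28. They were Fgf21, Hamp and the stress hormone Gdf15, which had 16.4, 6.35 and 5.81 CPM (-1.24).

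Zonation and nitrogen metabolism showed few calls. Of 24 pericentral genes 1 was higher (Rgn) and 1 lower (Avpr1a), and of 23 periportal genes 2 were higher and 2 lower, with medians of -0.14 and 0.08. Glul, the glutamine synthetase of the last pericentral cells, had 464, 692 and 549 CPM (0.58). None of 10 urea cycle genes was called, and Cps1 had 2109, 2778 and 3165 CPM (0.40). Of 50 genes of amino acid catabolism 2 were higher and 1 was lower (median 0.01). The lower gene, Csad, makes the taurine precursor hypotaurine and had 601, 232 and 244 CPM (-1.37). Of 30 genes of methionine, folate and choline metabolism 2 were higher and 3 lower. The choline kinase Chka had 80.5, 31.4 and 46.7 CPM (-1.33), and the nicotinamide methyltransferase Nnmt was higher at 1, 24 and 190 counts (1.32, interval 1.89 to 9.87).

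Transport of small solutes had 2 higher and 1 lower of 28 genes (median 0.42). Aqp8, the aquaporin of the bile canaliculus, had 7.96 CPM in control liver, 28.2 after 8 weeks and 19.9 after 12 (1.70). The monocarboxylate carriers parted, with Slc16a7 (MCT2) at 93.7, 218 and 144 CPM (1.21) and Slc16a1 (MCT1) at 203, 80.6 and 109 CPM (-1.32). Of 35 nuclear receptors 1 was higher and 1 was lower, the immediate early gene Nr4a1 at -1.06. The receptor genes for CAR (Nr1i3), PXR (Nr1i2) and PPAR-alpha (Ppara) were not called, at 517, 412 and 329 CPM, 71.7, 71.9 and 69.8 CPM and 107, 128 and 134 CPM. Of 38 liver transcription factors Cux2 and Onecut1 were higher and Myc (-1.04) and Atf5 (-1.03) lower. No gene was called in 3 mitochondrial lists: 0 of 52 nuclear respiratory chain genes (median 0.12), 0 of 52 mitochondrial ribosomal proteins (-0.05) and 0 of 13 transcripts of the mitochondrial genome (0.08). Among sphingolipid genes 1 of 27 was called, the ceramidase Acer2 at 20.6, 42.9 and 36.8 CPM (1.02).

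**Figure D4:**
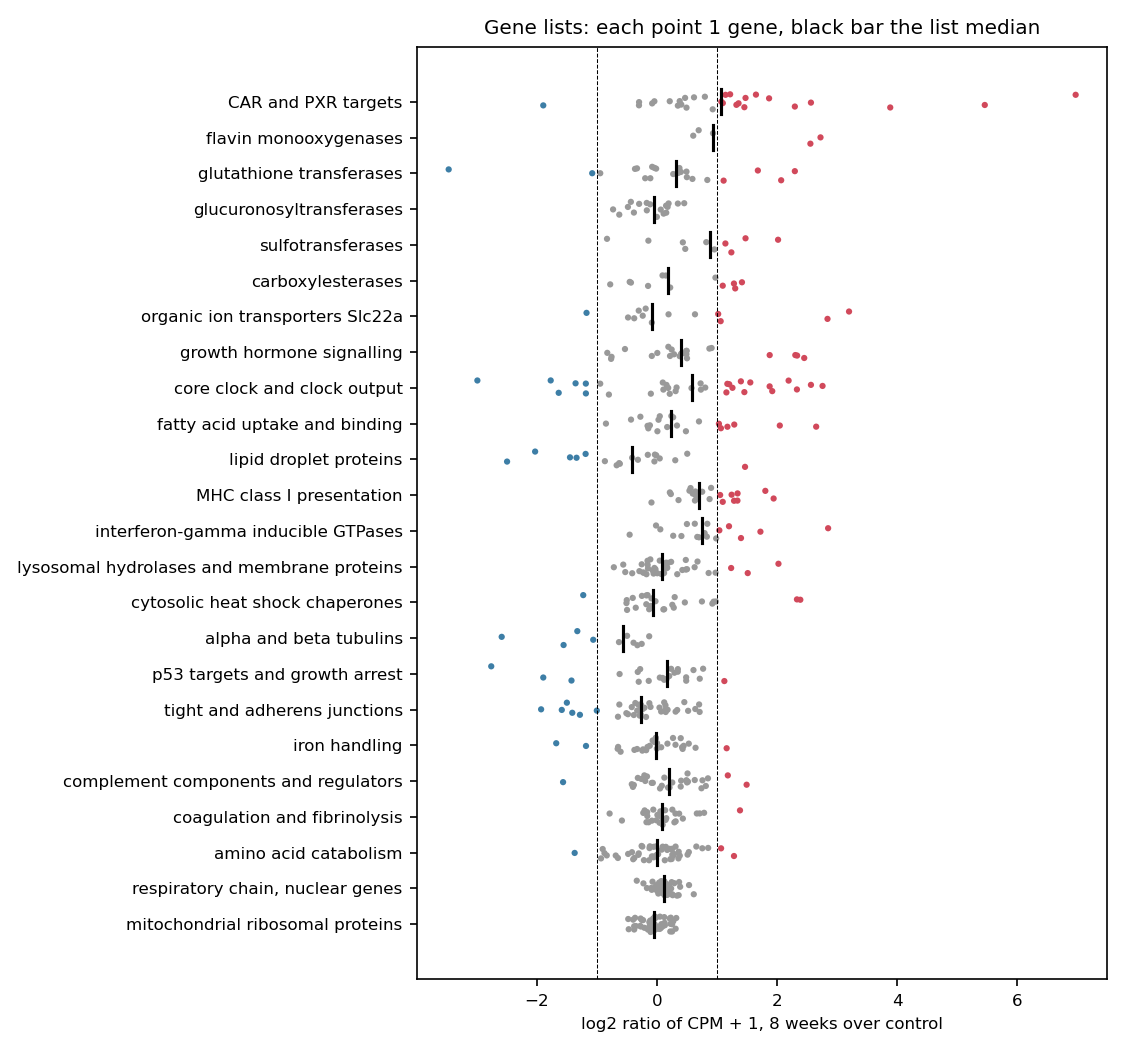
Log2 ratio of CPM + 1 at 8 weeks over control (horizontal axis) for each kept gene of 24 lists, 1 point per gene, with the list median as a black bar, dashed lines at 2-fold and called genes in red or blue. CAR and PXR targets, with 15 of 29 genes higher, and clock genes, with 13 of 33 higher and 6 lower, stand beside lists of mitochondrial genes with none called.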

How the data were processed

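RNA of mouse liver was sequenced in 3 libraries, 1 per group. Per the file headers, the authors deposited an estimated count for each gene, left unscaled. In the submitters' processing notes stand TopHat2 2.1.0, Cufflinks 2.2.1.0, mm9 and mm10, with no role for any of them. Which program counted reads, and whether by strand, was not given in the sources used here. GENCODE M21 (GRCm38) holds 95.4% of the symbols, 90.9% of them at an identical start and end, so coordinates are those of mm10. Dates written by a spreadsheet over 26 symbols were undone by position.

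Values were made whole by rounding and turned into CPM with TMM factors (control 0.997, 8 weeks 1.005, 12 weeks 0.999) in edgeR 4.0.16 with R 4.3.3. Genes at 1 CPM or more in at least 1 library were kept, 1 CPM was added before log2 ratios, and calls were made at 2-fold, with no test. Exact (Clopper-Pearson) 95% intervals cover counting error only, and reads lack molecular identifiers, so copies of 1 molecule may be counted more than once. Python 3.11.15, numpy 2.4.6, pandas 2.3.3, scipy 1.17.1 and matplotlib 3.10.9 were used.

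The members and gene lists were chosen with earlier results of these data known, and 4 lists and the gene clusters after their values were seen. Named genes are the 15 highest and 15 lowest ratios with at least 5 CPM in 1 library, without predicted genes and muscle markers, up to 4 called genes of each list in each direction or else its 2 most abundant, and the 15 largest gains and losses in CPM. Not every such gene is printed, some items are not reported here, and all others named were chosen after their values were seen. Without strand, reads of overlapping genes on opposite strands cannot be told apart: of the called genes, 297 overlap another kept gene. Other settings tried were the pseudocount, the filter, the fold threshold, the scaling (DESeq2 1.42.0 size factors among them) and leaving out groups of genes.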

Additional observations from a re-analysis of the deposited data

How the results depend on the processing

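No paired analysis was possible because each group is 1 library. With a pseudocount of 5 CPM 269 genes were higher and 160 lower, and at 3-fold 225 and 92. Without genes that overlap another kept gene, a choice made after seeing the data, 194 were lower. Under the other settings, among them no filter, a filter at 5 CPM and other scalings, 422 to 812 genes were higher and 223 to 426 lower. Without the macrophage markers, likewise added later, 589 were higher and 307 lower. With a pseudocount of 5 CPM the list medians moved to 1.21 for macrophage markers and 0.64 for CAR and PXR targets. With a filter at 5 CPM they moved to 0.12 for complement, -0.0132 for glutathione transferases, -1.06 for tubulins and 0.73 for clock genes. With no filter they moved to 0.0487 for adipocyte markers, 0.27 for sulfotransferases, 0.0872 for carboxylesterases, 0.0805 for the urea cycle and 0.19 for apolipoproteins L. With DESeq2 size factors the median of mitochondrial transcripts was 0.0932. The cause of these moves beyond the genes each setting adds or removes was not tested. For 214 named genes, each recomputed under several settings, 1200 ratios moved by less than 0.5 of the width of their counting interval and 69 by more, and no called gene changed sign. Depth limits genes with few counts: 3 counts equal 0.221, 0.209 and 0.227 CPM in the control, 8-week and 12-week libraries.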

Other observations

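Long noncoding RNAs and predicted gene models held some of the largest differences, and the genes in this paragraph were chosen after their values were seen. Neat1, the scaffold RNA of nuclear paraspeckles (chr19:5824708-5845478, mm10), had 620.2 CPM in control liver, 149.8 after 8 weeks and 491 after 12 (log2 ratio -2.04, interval -2.12 to -1.98). Its neighbour Malat1, also retained in the nucleus, had 599, 794 and 775 CPM (0.41) in the same order. Of 4 kept nuclear-retained RNAs, Neat1 was the one called, and Meg3 (-0.39) and Kcnq1ot1 (-0.49) were not. C330002G04Rik, annotated as a long intergenic RNA (chr19:23037390-23075853), had 169.8 CPM in control liver, 9.77 after 8 weeks and 19.1 after 12 (-3.99), and both treated libraries were low. Gm26917, likewise only annotated as a long intergenic RNA (chr17:39843013-39846341), had 412, 47.3 and 119.6 CPM (-3.09). Which RNA its reads come from was not tested. Gm10800 (chr2:98666547-98667301) had 55, 2335 and 20558 counts and Gm26870 had 8, 386 and 3259 counts, so for these predicted models the 12-week library was far above the 8-week library. Gm26870 overlaps several other called models on the opposite strand, such as Gm11168 with 4 counts in the control and 128 at 8 weeks. Their reads cannot be told apart, and whether the reads of Gm10800 and Gm26870 also match other places in the genome was not tested. Gm4788, a predicted protein-coding gene (chr1:139697623-139781243), had 80, 1556 and 112 counts (3.99), high at 8 weeks alone.

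Other single genes stood apart. Rgs16, a regulator of G protein signalling (chr1:153740349-153745468), had 39.1 CPM in control liver, 189.6 after 8 weeks and 186 after 12 (2.25). The channel gene Hcn3 had 270, 1547 and 885 counts, but it overlaps the called pyruvate kinase gene Pklr on the opposite strand. Wfdc21, a secreted acute phase protein gene, had 57.3, 262 and 226 CPM (2.17), and the zinc finger gene Zfp970 had 54.5, 250.1 and 71.7 CPM (2.18), with 8 weeks alone high. These genes were also chosen after their values were seen.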
